A study of Drosophila melanogaster with 8 samples.

Results

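The lower reproductive tract of Hr39(04443) mutant females was compared with that of wild-type females. The comparison covered the probe sets whose signal was at or above the median of their own array on both arrays of at least 1 genotype. Of 18769 probe sets that are not controls, 9257 met this rule, and 7985 of them carry 1 gene symbol, covering 7330 genes. RNA was measured on 8 Affymetrix arrays from Drosophila melanogaster in 4 groups of 2, and the 4 arrays of the lower tract are described here. Mutant and wild-type females alike were mated adults, 4 day old, and their lower tracts were dissected free of the spermathecae, the paired sperm-storing glands. The mutant allele is given as Hr39(04443), and no strain is named for the wild type, so the mutation and any difference in strain background cannot be told apart. Whether the 2 arrays of a genotype hold separate animals is not stated. All p-values therefore describe only the spread between these arrays, and that spread may be technical.

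Hr39 encodes an orphan nuclear receptor of the family of mammalian SF-1, and it is known to act in the development of the secretory glands of the female tract. The lower tract without the spermathecae holds the common oviduct, the uterus, the seminal receptacle and the parovaria, which are small accessory glands. It is an epithelial tube lined with cuticle and wrapped in muscle, with attached fat body, hemocytes and nerves. The study addresses what Hr39 contributes to these organs. Signals below are array intensity values on the linear MAS5 scale, in which every array was scaled to the same trimmed mean. Differences are mutant minus wild type on a scale of log2(signal + 4), with their standard error (SE), and a probe set passed at a limma adjusted p below 0.05. Values of single arrays are given in the order mutant replicates 1 and 2, then wild-type replicates 1 and 2.

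At the edge of the rule, CG8097 (22.3, 33.3, 66.6 and 20.2), CG15153 (2.52, 1.97, 22.6 and 22.1) and Jhbp2 (28.6, 20.8, 31.0 and 19.9) were kept. CG13144 (25.7, 20.3, 22.5 and 21.7), CG15368 (2.73, 11.0, 22.5 and 28.4) and ninaD (5.07, 22.2, 22.5 and 52.4) fell just outside it. Array medians were 20.5 to 22.5, so signals near or under 20 lie in the lower part of each array.

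The mutant arrays correlated with each other across probe sets at r = 0.983 and the wild-type arrays at 0.964, against 0.915 to 0.939 between genotypes. Ratios of 3′ to 5′ signal, which rise with RNA degradation, were 1.34 to 2.14 for actin, 2.46 to 2.88 for Gapdh and 2.75 to 2.94 for eIF-4a on the 4 arrays. Muscle markers, which the labelled tissue should hold, were abundant. Their summed signal over 29 probe sets was 120018, 103526, 100429 and 113004. Neuron markers summed to 820 to 1232 over 38 probe sets, of which 22 lay below the array median on all 4 arrays. Sperm and testis markers summed to 557 to 752, with 27 of 38 below the medians throughout, and dj, Mst98Cb and Mst27D were at or near 0. Male accessory gland markers summed to 497 to 1039, with 25 of 32 below the medians throughout. The brightest probe set of that list, Acp65Aa, encodes a cuticle protein. Gut and Malpighian tubule markers summed to 6377 to 7965 and eggshell markers to 808 to 1007.

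A pair of marker groups differed between replicates of the same genotype. Germline markers summed to 9693 on wild-type replicate 1 and to 3560 to 3889 on the other 3 arrays. There osk, which specifies germ cells, read 11.3, 28.7, 555.6 and 20.8, and the cyclin CycB read 19.4, 181, 1134 and 88.2. Neither passed, and without wild-type replicate 1 the osk difference went from -2.39 to -0.15. Markers of the secretory cells of the spermathecae summed to 7870, 1605, 2548 and 318, so the signal of that removed organ was highest on mutant replicate 1 and lowest on wild-type replicate 2. The summed fat body markers separated the genotypes instead, at 29089 and 29192 in the mutant against 43490 and 42889 in wild type. The brightest members of that sum, the yolk protein genes Yp1, Yp2 and Yp3, did not pass. Among its tested members the genotypes overlapped for fit (969, 1365, 1479 and 1018), Lsp2 (164, 579, 503 and 214) and TotC. The other tested members were lower on both mutant arrays. Hemocyte markers summed to 7141, 6930, 5893 and 6940 and overlapped between the genotypes. The mean log2 signal of the 13 tested hemocyte probe sets, which weights them equally, was higher on both mutant arrays (8.37 and 8.45) than on both wild-type arrays (7.70 and 8.04). In whole tissue, fewer cells of a type and less RNA per cell cannot be told apart.

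**Figure D1:**
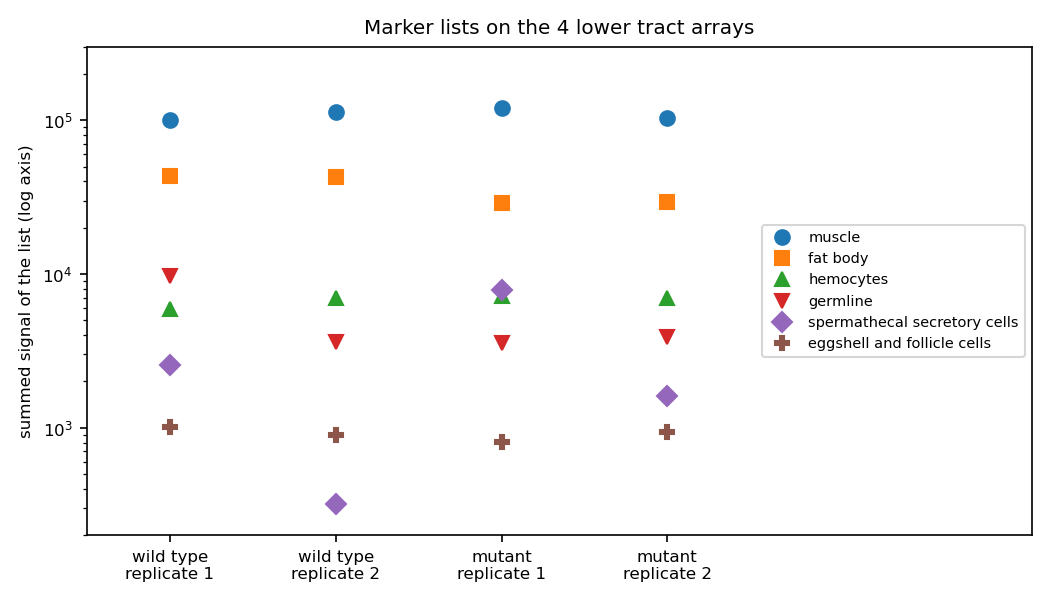
Summed array signal (MAS5, log axis) of 6 marker lists on the 4 lower tract arrays, 1 point per list and array. Germline markers stand high on wild-type replicate 1 (9693), spermathecal markers range from 318 to 7870, and fat body markers are lower on both mutant arrays.

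Hr39 itself did not pass on any of its tested probe sets. Probe set 1631402_s_at read 50.6, 56.7, 79.4 and 87.3, a difference of -0.60 (SE 0.177, adjusted p = 0.0871). Probe set 1630002_s_at read 59.6, 65.4, 73.3 and 88.2 (-0.35, adjusted p = 0.350). On both, each mutant array lay below each wild-type array, but the genotypes also did not overlap for 50.6% of all probe sets tested. Probe set 1628556_s_at read 68.6, 56.1, 70.4 and 58.8 (-0.05, adjusted p = 0.958), and its genotypes overlapped. Another, 1632845_at, was below the array medians at 1.08, 0.202, 6.36 and 6.01 and was not tested. The related receptor gene ftz-f1 had differences of -0.17 and 0.33 on its probe sets (adjusted p = 0.814 and 0.769). The transcript level of Hr39 is thus no clear check of the genotype labels, and the labels do not say which part of the transcript the allele alters.

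Between the genotypes 601 of 9257 probe sets (6.49%) passed, 258 of them higher (2.79%) and 343 lower (3.71%) in the mutant. They cover 525 genes with 1 symbol, and 64 further probe sets have none or several. The median size of a passing difference was 1.38 on the log2 scale, while the median over all probe sets was -0.00. Differences exceeded 4-fold for 70 rises and 93 falls, and 16-fold for 12 rises and 8 falls. The genotypes did not overlap for any passing probe set, as they did not for 4681 (50.6%) of all those tested. At an unadjusted p below 0.05 there were 1705 probe sets. An exact permutation test of 2 arrays against 2 cannot go below 0.333 two-sided, so single-gene calls rest on the spread limma shares across genes.

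Without wild-type replicate 1, 334 probe sets (3.61%) passed, 138 higher (1.49%) and 196 lower (2.12%). The sign could not change for any of the 601, because the genotypes did not overlap for any of them. Of the 343 falls, 6 had more than 2 times the signal on wild-type replicate 1 of that on replicate 2. A probe set whose wild-type arrays lie far apart passes less easily. A low count among passing falls therefore cannot show how much that array contributed. Without mutant replicate 1, which held the most spermathecal signal, 189 passed, 67 higher and 122 lower. Without mutant replicate 2 it was 237, and without wild-type replicate 2 it was 541. The 161 probe sets that passed whichever of the 8 arrays was left out comprised 57 rises and 104 falls.

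**Figure D2:**
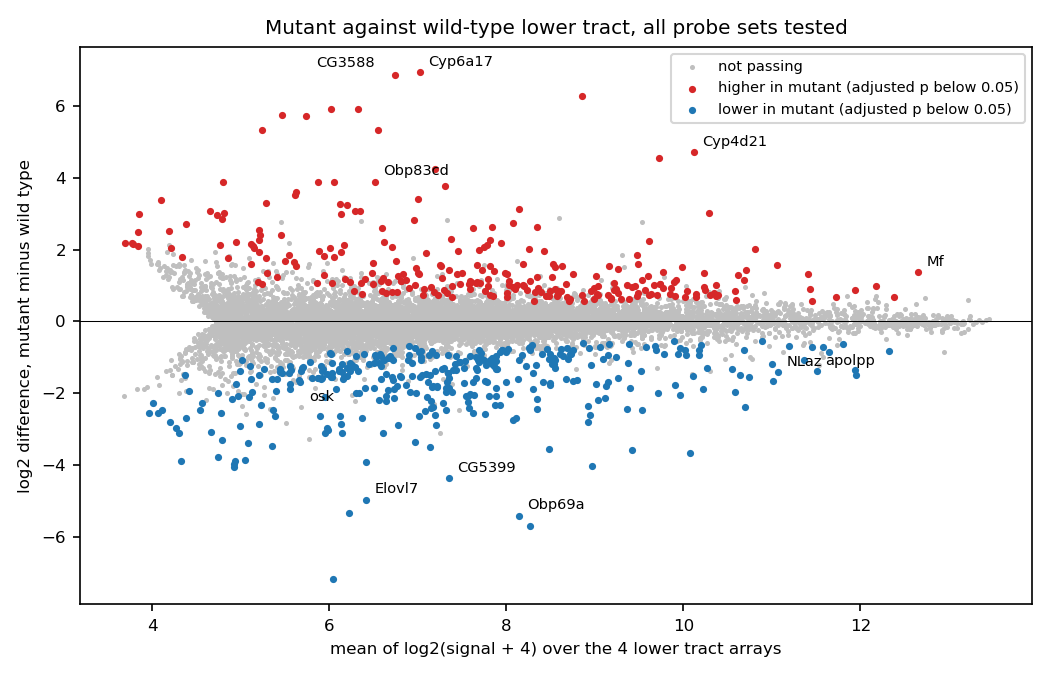
Difference between genotypes (log2, mutant minus wild type) against the mean log2 signal of the 4 lower tract arrays, 1 point per probe set, with the 258 higher and 343 lower passing probe sets coloured. Named points lie far from the median difference of -0.00, and osk is marked although it did not pass.

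Among the largest falls was Obp69a, an odorant-binding protein gene. Its signals were 29.9, 51.4, 1663 and 2017, a 45.3-fold difference of mean signals and -5.40 on the log2 scale (SE 0.243, adjusted p = 5.68e-06). The serine protease gene teq (Tequila) read 10.1, 5.95, 477 and 462 (-5.32, SE 0.379, adjusted p = 4.14e-05). A second probe set of teq, 1626427_a_at, was at or below 11.3 on all 4 arrays and was not tested. Elovl7, an enzyme that lengthens fatty acids, read 11.5, 11.1, 453 and 492 (-4.96, SE 0.466, adjusted p = 0.000250). For teq and Elovl7 both mutant signals lay below the array medians, for Obp69a they lay above them, and for all 3 both wild-type arrays were far higher.

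The serine protease gene CG30371 read 170.7, 84.6, 1976 and 2076 in the lower tract (-4.03, SE 0.278, adjusted p = 3.33e-05). It is also a bright transcript of the spermathecae, with mean signals of 14735 in the mutant and 14814 in wild type there. Spermathecal marker signal on the 4 arrays was 7870, 1605, 2548 and 318, and its part in this difference was not tested. The zinc-finger transcription factor gene cas (castor) read 2.07, 5.22, 129 and 110 (-4.04, SE 0.417, adjusted p = 0.000405). A LIM-domain gene, esn (espinas), read 10.4, 29.6, 298 and 356 (-3.91, SE 0.410, adjusted p = 0.000437). Obp56e fell by 3.48, Cyp4p2 by 3.39, the UDP-glycosyltransferase gene Ugt35C1 by 3.85 and the sorbitol dehydrogenase gene Sodh2 by 3.35. The genes CG5399, CG13215, CG13931, CG14456 and CG32444 fell by 4.36, 3.76, 3.88, 3.67 and 3.57. Without wild-type replicate 1 the difference was -5.54 for Obp69a and -3.68 for CG13931. These 15 falls were ranked by the smaller of the differences with and without that array. Their size without it is therefore no separate check.

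Cyp6a17, a cytochrome P450 gene, and CG3588 had the largest rises among genes with 1 symbol. Cyp6a17 read 1454, 1417, 9.78 and 5.99, a difference of 6.94 (SE 0.400, adjusted p = 1.32e-05). CG3588 read 1343, 991, 11.7 and 2.28 (6.86, SE 0.467, adjusted p = 3.08e-05), and its second probe set rose by 3.61. The odorant-binding protein gene Obp83g read 496, 504, 4.96 and 3.86 (5.91, SE 0.554, adjusted p = 0.000250). In each of these the wild-type arrays were below the array medians and the mutant arrays were among the brighter probe sets.

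Elo68alpha, another fatty acid elongase, read 358, 289, 2.31 and 1.74 (5.76, SE 0.429, adjusted p = 5.60e-05). The immunoglobulin gene beat-VII read 476, 311, 3.27 and 3.39 (5.73, SE 0.272, adjusted p = 6.21e-06), and its other probe set rose by 5.34. Cyp4d21, a cytochrome P450 with sex-specific expression, was well measured in both genotypes at 5626, 5745, 204 and 223.5 (4.71, SE 0.261, adjusted p = 1.18e-05). CG11892 read 4238, 3946, 141 and 209 and rose by 4.54. CG14419 and CG13794 rose by 5.91 and 4.24, Obp83cd by 3.89 and CG13285 by 3.88. The alpha-glucosidase gene tobi (target of brain insulin) read 203, 311, 11.3 and 15.4, and the maltase gene Mal-B1 read 642, 526, 32.8 and 46.1, rises of 3.89 and 3.77.

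Some large rises rest on less. Pxd, a peroxidase gene, rose by 3.89, and its adjusted p was 0.0626 without mutant replicate 1. The small heat shock gene l(2)efl rose by 3.53 on probe set 1635952_at, which read 156, 168, 11.8 and 9.12. Its brighter probe sets gave -0.18 and -0.17 and did not pass, and the adjusted p of 1635952_at was 0.0671 without mutant replicate 1 and 0.0655 without mutant replicate 2. Sizes of differences with 1 genotype near background depend on the pseudocount of 4. With none and with 20, Cyp6a17 differed by 7.55 and 5.71, CG3588 by 7.80 and 5.46, Elo68alpha by 7.33 and 3.96, CG13931 by -5.90 and -2.13, and teq by -5.92 and -4.13. Bright genes moved little, as Cyp4d21 at 4.74 and 4.61 and CG30371 at -4.08 and -3.86.

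**Figure D3:**
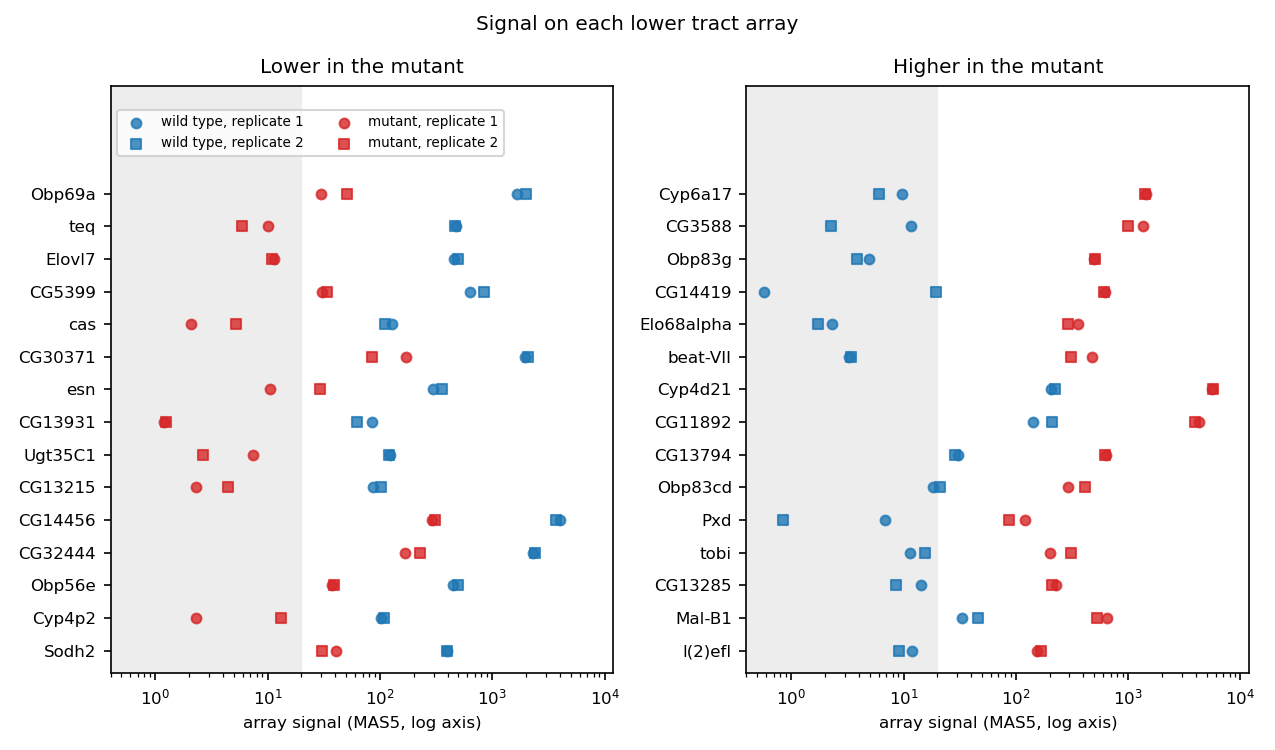
Signal on each lower tract array (MAS5, log axis) of the 15 genes with the largest falls and the 15 with the largest rises, blue for wild type and red for mutant, circles for replicate 1 and squares for replicate 2. The grey band marks signals under 20, near or below the array medians, where many of the lower values lie. Genes were taken only if their genotypes did not overlap.

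Among the brightest probe sets the differences were smaller. The thick filament gene Mf (myofilin) read 11667, 9184, 3512 and 4534 on probe set 1635372_a_at (1.37, SE 0.184, adjusted p = 0.00186). Its probe set 1636600_a_at read 9130, 7081, 8825 and 9402 and did not pass (-0.18, adjusted p = 0.663), so the Mf transcripts did not move as one. Tep4, a thioester-containing protein of the immune response, read 7021, 6462, 4050 and 4406 (0.67, adjusted p = 0.0225), and Vha44, a subunit of the vacuolar proton pump, rose by 0.67 (adjusted p = 0.0458). CG6409 and CG10237 rose by 0.99 and 0.87. Tep4, CG6409, CG10237 and Vha44 did not pass without wild-type replicate 1 (adjusted p = 0.135, 0.156, 0.140 and 0.188), nor without any other lower tract array (adjusted p from 0.0558 to 0.412).

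Of the brightest falls, CG2233 read 2155, 2574, 7124 and 6277 (-1.50, SE 0.216, adjusted p = 0.00279). The immune-induced peptide gene IM33 read 2416, 2535, 5860 and 6705 (-1.34, SE 0.234, adjusted p = 0.00829). The neuropeptide-like precursor gene Nplp2 fell by 0.82, Jhbp3 by 0.64 and frac by 0.84. The calls of Nplp2 and Jhbp3 were lost without wild-type replicate 1 (adjusted p = 0.0834 and 0.0685) and without each other lower tract array (0.0895 to 0.253). Those of IM33 and frac were lost without mutant replicate 1 (0.0895 and 0.0549) and without mutant replicate 2 (0.0635 and 0.0664).

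Cytochrome P450 enzymes oxidise hormones, pheromones, fatty acids and foreign compounds. Of 85 P450 probe sets on the array 61 were tested, and 6 rose (9.84%) and 8 fell (13.1%), with a median difference of 0.15. Over all tested probe sets 2.79% rose and 3.71% fell, and the count of each list stands beside these shares. Beside Cyp6a17 and Cyp4d21, the rises were Cyp4s3 (2.99), Cyp4d20 (2.12), Cyp6a20 (1.57) and Cyp12a5 (1.35). The falls were Cyp4p2, Cyp4p1 (-3.03), Cyp6a2 (-2.11), Cyp6a23 (-1.85), Cyp309a2 (-1.73), Cyp6g1 (-1.65), Cyp6a14 (-1.50) and Cyp4ac3 (-0.77). Cyp6g1, known for its part in DDT resistance, read 106, 132, 431 and 334, and Cyp6a23 read 360, 346, 1135 and 1443. Of the 14, 11 passed without wild-type replicate 1, while Cyp4d20, Cyp309a2 and Cyp4s3 did not (adjusted p = 0.129, 0.0651 and 0.0588).

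Enzymes that conjugate such compounds had few calls. Among glutathione S-transferases 1 of 30 tested probe sets rose (3.33%) and 2 fell (6.67%), beside 2.79% and 3.71% of all probe sets. GstE11 read 697, 650, 173 and 168 (1.96, adjusted p = 5.45e-05), GstE1 read 80.0, 89.9, 507 and 538 (-2.57, adjusted p = 2.31e-05), and GstS1 fell by 0.95. The GstS1 call was lost without mutant replicate 1 (adjusted p = 0.0773). Among UDP-glycosyltransferases 2 of 16 rose (12.5%), Ugt50B3 by 2.03 and Ugt301D1 by 1.44, and Ugt35C1 fell (6.25%). Ugt301D1 did not pass without any 1 of the lower tract arrays (adjusted p from 0.110 to 0.276).

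Odorant-binding proteins are small secreted carriers of hydrophobic molecules. Of 51 probe sets 18 were tested, and 3 rose (16.7%) and 6 fell (33.3%), with a median difference of -0.07. Over all probe sets 2.79% rose and 3.71% fell. Obp83cd read 291, 416, 18.3 and 21.2 (3.89, SE 0.222, adjusted p = 1.31e-05). Obp99c read 352, 501, 1846 and 1522 (-1.99), and Obp8a read 37.5, 47.4, 192 and 234 (-2.23). Obp57c was the brightest of those that fell, at 2322, 2458, 3596 and 4249 (-0.71, adjusted p = 0.0164). Obp83g, Obp83cd and Obp83b all rose and carry names of the same cytological region, with Obp83b at 1.57, whereas Obp69a, Obp56e, Obp57c, Obp8a, Obp99a and Obp99c fell. Obp83b and Obp99a did not pass without wild-type replicate 1 (adjusted p = 0.151 and 0.0579).

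Transcripts known from the fat body, the fly's organ of storage and intermediary metabolism, were lower in the mutant for 3 of 11 tested probe sets, and 0 were higher (median -0.65). That is 27.3% lower, against 3.71% of all probe sets. Apoltp, a lipid transfer lipoprotein, read 103, 98.5, 547 and 495 (-2.33, SE 0.225, adjusted p = 0.000303). The main blood lipoprotein gene apolpp read 1666, 1952, 4620 and 4841 (-1.39, SE 0.252, adjusted p = 0.00946), and the lipid droplet protein gene Lsd-1 fell by 0.96. The apolpp call was lost without mutant replicates 1 and 2 and without wild-type replicate 1 (adjusted p = 0.115, 0.0543 and 0.0525), and so was that of Lsd-1 (0.147, 0.0978 and 0.0841). The yolk protein genes did not pass: Yp2 read 5636, 6107, 10974 and 10240 (-0.85, adjusted p = 0.116), and Yp1 and Yp3 gave -0.33 and -0.29. The larval serum protein receptor gene Fbp1 was near 0 on all 4 arrays. NLaz, a lipocalin that carries lipids, read 1275, 1365, 3253 and 3744 (-1.40, SE 0.159, adjusted p = 0.000697).

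A list of carbohydrate metabolism was chosen after values were seen and is therefore no independent evidence of a direction. In it 7 of 29 tested probe sets fell (24.1%) and 2, tobi and Mal-B1, rose (6.90%), with a median of -0.08. Over all probe sets 3.71% fell and 2.79% rose. Pepck2 and Pepck1, which start gluconeogenesis, read 3.94, 15.2, 160 and 109 (-3.46) and 992, 912, 3147 and 2278 (-1.49). The trehalose-making gene Tps1 read 689, 613, 1939 and 1776 (-1.51, adjusted p = 0.00115). Sodh2, Sodh1 (-1.07), the hexokinase gene Hex-C (-1.35) and the fructose-bisphosphatase gene fbp (-0.91) also fell. Pepck1 and Sodh1 did not pass without wild-type replicate 1 (adjusted p = 0.0550 and 0.0936).

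Of a nucleotide list chosen the same way, 5 of 13 fell (38.5%, against 3.71% of all probe sets) and 0 rose (median -0.51). Prat2, the entry enzyme of purine synthesis, read 49.2, 79.0, 322 and 282 (-2.20, SE 0.281, adjusted p = 0.00137). Paics, a later enzyme of that pathway, read 357, 347, 1032 and 1083 (-1.58, SE 0.169, adjusted p = 0.000496), and Pfas fell by 1.31. The pyrimidine synthesis gene r (rudimentary) fell by 1.43, and su(r), which degrades pyrimidines, by 1.48. The Pfas call was lost without mutant replicate 1 (adjusted p = 0.0690) and that of su(r) without mutant replicate 2 (0.0780). The r call was lost without wild-type replicate 1 (0.0772).

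In the amino acid list, also chosen after values were seen, 6 of 22 fell (27.3%) and 1 rose (4.55%), with a median of -0.32. Over all probe sets 3.71% fell and 2.79% rose. Agxt, an aminotransferase that detoxifies glyoxylate, read 70.5, 85.1, 456 and 496 (-2.56, adjusted p = 0.000231). Bcat, Odc1, P5CS, Srr and Aldh7A1 fell by 1.53, 1.70, 1.67, 1.61 and 1.38, and Tat rose by 1.29. Odc1, P5CS, Srr, Aldh7A1 and Tat did not pass without wild-type replicate 1 (adjusted p from 0.0512 to 0.149), and Bcat did not pass without mutant replicate 1 (0.110). The summed fat body signal, in which the yolk protein genes are brightest, was 29089 and 29192 in the mutant against 43490 and 42889 in wild type. Its part in the falls of these metabolic genes was not tested.

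Blood cells and immunity showed both directions. Of 13 tested hemocyte probe sets 3 rose (23.1%, against 2.79% of all probe sets) and 0 fell. The median was 0.27, and 0.04 without wild-type replicate 1. Not all members were higher: Col4a1 read 907, 718, 1169 and 1174, and the tested probe set of Pxn read 1957, 1461, 1902 and 2069. NimC1, a receptor by which hemocytes take up bacteria, read 322, 331, 35.1 and 51.8 (2.82, SE 0.339, adjusted p = 0.000933). The scavenger receptor gene Sr-CI read 258, 259, 64.3 and 114 (1.55), and the prophenoloxidase gene PPO1, needed for melanization, read 359, 379, 191 and 202 (0.90). Hml, a widely used hemocyte marker, read 564, 579, 300 and 355 and did not pass (0.80, adjusted p = 0.161). Sr-CI and PPO1 did not pass without wild-type replicate 1 (adjusted p = 0.0949 and 0.0725) or without either mutant array (0.122 to 0.158). The mean log2 signal of the hemocyte list was 8.37 and 8.45 in the mutant against 7.70 and 8.04 in wild type, the 3 passing probe sets included. The part of hemocyte content in these rises was not tested.

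Among genes of immune recognition 3 of 20 rose (15%) and 4 fell (20%), beside 2.79% and 3.71% of all probe sets. NimC2 rose by 2.28 and Tep4 by 0.67, while NimB1 (-2.26), NimC4 (-1.62), PGRP-SC2 (-1.56) and NimB2 (-0.93) fell. PGRP-SC2, an enzyme that degrades bacterial peptidoglycan, read 109, 76.2, 224 and 342. NimC2, NimB1, NimC4 and NimB2 did not pass without wild-type replicate 1 (adjusted p = 0.0683, 0.178, 0.215 and 0.0610), and PGRP-SC2 did not pass without mutant replicate 2 (0.0656).

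Of the antimicrobial peptides 1 of 18 rose (5.56%) and 3 fell (16.7%), beside 2.79% and 3.71% of all probe sets (median -0.52). AttD, an attacin, read 583, 543, 93.5 and 82.9 (2.62, adjusted p = 0.00375). Mtk, the antifungal peptide Metchnikowin, read 821, 643, 3316 and 4281 (-2.37, adjusted p = 0.0211), and the bomanin gene BomS6 read 81.2, 124, 508 and 944 (-2.74, adjusted p = 0.00500). AttD and BomS6 were not called without mutant replicate 1 (adjusted p = 0.0544 and 0.0660), and Mtk was not called without any 1 of the lower tract arrays (0.0732 to 0.146). Serpins, which inhibit serine proteases, had 3 falls in 18 (16.7%, against 3.71% of all probe sets). Spn47C read 99.8, 110, 481 and 620 (-2.34), Spn88Eb fell by 2.08 and Spn42Da by 0.55. Spn42Da did not pass without any 1 of the lower tract arrays (adjusted p from 0.122 to 0.274), and Spn88Eb did not pass without mutant replicates 1 and 2 (0.0718 and 0.0622).

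Transporters of ions and solutes rose for 6 of 31 tested probe sets (19.4%) and fell for 1 (3.23%), beside 2.79% and 3.71% of all probe sets (median 0.07). The zinc transporter gene ZnT35C read 209, 172, 62.1 and 50.7 (1.69), and the sugar transporter gene sut1 read 204, 196, 96.6 and 63.0 (1.31, adjusted p = 0.00491). The inward rectifier potassium channel genes Irk2 and Irk1 rose by 0.88 and 0.78, and the sodium/proton exchanger genes Nhe3 and Nhe1 by 0.95 and 0.85. The amino acid transporter gene mnd fell by 1.19. Of these 7, sut1 alone passed without wild-type replicate 1, and its call was lost without mutant replicate 1 (adjusted p = 0.0611). CAH2, a carbonic anhydrase, which interconverts carbon dioxide and bicarbonate, read 1029, 975, 2709 and 3125 (-1.54, SE 0.212, adjusted p = 0.00219).

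Of the genes of the secretory pathway through the endoplasmic reticulum 4 of 40 rose (10%, against 2.79% of all probe sets) and 0 fell (median 0.23). The cargo receptor gene ergic53 read 1208, 1250, 508 and 682 on its probe set 1624560_at (1.06, adjusted p = 0.00385), and its other probe set rose by 0.68. The calnexin gene Cnx99A read 1530, 1423, 848 and 886 (0.77), and zetaCOP, of the vesicle coat, rose by 1.36. Without wild-type replicate 1, 1 of the 4 passed. In wild-type spermathecae ergic53 (1624560_at) and Cnx99A read 3175 and 1204 on average, and zetaCOP read 54.2. The spermathecal marker signal was 7870, 1605, 2548 and 318 on the 4 arrays, and its part in these rises was not tested.

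Receptors for neuropeptides, octopamine and other egg-laying signals fell for 4 of 12 tested probe sets, of 40 on the array, and 0 rose (median -0.39). That is 33.3% lower, against 3.71% of all probe sets. NPFR, the receptor of neuropeptide F, read 41.4, 46.1, 163 and 176 (-1.86, SE 0.256, adjusted p = 0.00216). The short neuropeptide F receptor gene sNPF-R read 24.4, 22.7, 54.5 and 78.2 (-1.33), AkhR, the adipokinetic hormone receptor of fat body, read 24.1, 24.5, 69.8 and 75.6 (-1.44), and rk, the bursicon receptor, fell by 1.07. AkhR and rk did not pass without wild-type replicate 1 (adjusted p = 0.0833 and 0.0621), and sNPF-R did not pass without any other lower tract array (0.0714 to 0.110). The peptide hormone gene CCHa2, known from fat body and gut, read 30.8, 53.0, 124 and 195 (-1.85, adjusted p = 0.00844), and its call was lost without mutant replicate 1 (0.100).

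In the list of ecdysone and juvenile hormone genes 2 of 24 fell (8.33%, against 3.71% of all probe sets) and 0 rose. Both belong to a family of sterol-binding proteins: Npc2g read 265, 331, 1060 and 1013 (-1.79, adjusted p = 0.00361) and Npc2h read 82.3, 110, 259 and 264 (-1.42, adjusted p = 0.00352). Their calls were lost without mutant replicate 1 (adjusted p = 0.0544 and 0.0549). None of 16 nuclear receptor probe sets and none of 33 for factors that pattern the tract passed. Without wild-type replicate 1, 1 of the patterning probe sets did, that of the FGF receptor gene btl, which read 41.1, 37.9, 32.4 and 3.70 (2.50, adjusted p = 0.0115, against 1.38 and 0.255 with all arrays).

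The calls among matrix, junction, cuticle and chitin genes stand beside the 6.49% of all probe sets. Of the basement membrane and matrix list 2 of 26 rose and 1 fell: Tsp (thrombospondin) read 379, 284, 139 and 149 (1.17, adjusted p = 0.00581), the collagen-modifying enzyme gene PH4alphaEFB rose by 0.65, and dpy, a giant matrix protein, fell by 0.78. Among epithelial junction genes 1 of 36 rose, Nrx-IV by 0.72. Of the cuticle proteins 1 of 42 rose (Cpr49Ae, 1.16) and 1 fell (TwdlT, -1.61), and of the chitin genes 1 of 28 rose (Cht10, a chitinase, 2.42) and 1 fell (Idgf5, -1.33). PH4alphaEFB, Nrx-IV, Cpr49Ae, TwdlT and Idgf5 did not pass without wild-type replicate 1 (adjusted p = 0.129, 0.182, 0.191, 0.0522 and 0.0685). Without mutant replicate 1, Tsp, dpy and Cht10 did not pass (0.0875, 0.272 and 0.115).

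Muscle genes had 3 rises in 27 tested probe sets (11.1%, against 2.79% of all) and 0 falls (median 0.01). The rises were Mf, Zasp66 (1.39) and Mlp60A (1.76). Zasp66 read 414, 336, 110 and 177 on the probe set that rose, while its brighter probe sets gave -0.15 and -0.08. Mlp60A likewise read 9042, 8044, 7851 and 8913 on its brightest probe set (0.03, adjusted p = 0.960). Zasp66 did not pass without wild-type replicate 1 (adjusted p = 0.147) and Mlp60A did not pass without wild-type replicate 2 (0.124). The synaptic gene nSyb was the 1 of 13 neuron probe sets that rose (2.54), and it did not pass without any 1 of the lower tract arrays (0.0518 to 0.260).

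The counts of the remaining lists stand beside the 2.79% of all probe sets that rose and the 3.71% that fell. Of these lists, elongases, desaturases and fatty acid enzymes had 2 rises (11.1%) and 3 falls (16.7%) in 18. These changes included the lipase genes Lip4 (1.04) and bmm (-0.63), whose calls were both lost without wild-type replicate 1. Heat shock proteins had 2 rises in 19, l(2)efl and Hsc70-2 (2.21), and Hsc70-2 was lost without wild-type replicate 1 (0.156). The antioxidant list had 1 fall in 22, that of Duox (-0.98), which is an oxidase gene and not itself antioxidant. Its call was lost without wild-type replicate 1 (-0.78). Oxidative phosphorylation had 1 rise in 65, ND-13B (0.75), lost without wild-type replicate 1 (0.0619), and ribosomal proteins had 1 fall in 40, RpL7-like (-1.05), lost without mutant replicate 1 (0.0736). None passed among 27 glycan and mucin, 12 germline, 6 eggshell, 8 spermathecal, 5 sperm and testis, 3 male accessory gland, 8 gut and 3 lysozyme and lectin probe sets. Of the sperm and testis list Mst84B passed without wild-type replicate 1 (2.16, adjusted p = 0.0494). The stock marker gene ry read 143, 114, 158 and 132 (-0.17, adjusted p = 0.859), while in the spermathecae it rose by 2.62.

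The 8 tested spermathecal proteases gave a median difference of 1.93, and 5 of them passed without wild-type replicate 1, when the median was 3.66. CG31681 read 2157, 513, 502 and 36.1 and Send1 (spermathecal endopeptidase) read 2195, 531, 785 and 181. Both were highest on mutant replicate 1 and lowest on wild-type replicate 2, with the other 2 arrays between them. The germline list had a median of -0.52, which was -0.04 without wild-type replicate 1.

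**Figure D4:**
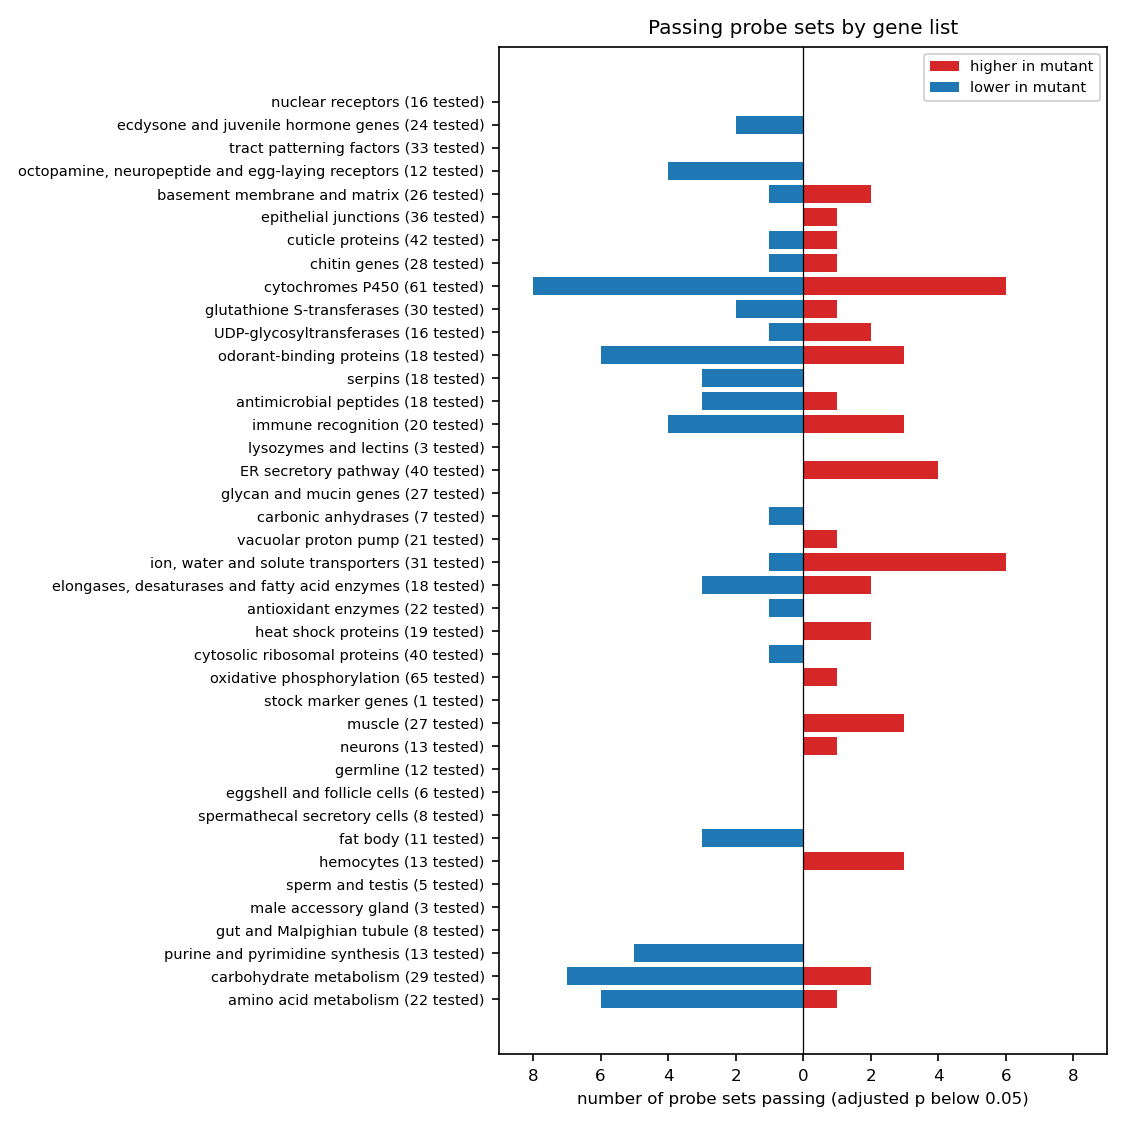
Number of probe sets that passed in each gene list, higher in the mutant to the right and lower to the left, with the number tested after each list's name. P450 genes moved both ways (6 higher, 8 lower), and the last 3 lists were chosen after values were seen.

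The spermathecae of both genotypes give a comparison whose differences share no array with those of the lower tract. The calls are not separate, because the spread of each probe set was fitted over the arrays of both organs together. A probe set with a small fitted spread passes more easily in both organs. The part of this in the calls shared by the organs was not tested. Of the 258 rises in the lower tract, 97 (37.6%) were also rises in the spermathecae, which is 26.4% of the 367 found there (3.96% of probe sets tested). Of the 343 falls 102 (29.7%) were falls in the spermathecae, 27.0% of 378 (4.08%). A further 6 rises and 13 falls went the opposite way. Cyp6a17 rose by 5.67 in the spermathecae, CG11892 by 6.79 and tobi by 4.56, and teq fell there by 3.82, Cyp4p2 by 4.72, Sodh2 by 4.05 and CG14456 by 3.31.

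The difference between the organs in the effect of the mutation was tested as an interaction, which passed for 290 of 9257 probe sets (3.13%), 167 of them among the 601. CG3588 rose in the lower tract and gave 0.34 in the spermathecae (difference of effects 6.52, SE 0.660, adjusted p = 0.000743). Elo68alpha gave -0.14 there (5.90, SE 0.607, adjusted p = 0.000782), Obp83cd 0.18 (3.72, SE 0.313, adjusted p = 0.000310) and Obp69a -0.64 (-4.77, SE 0.344, adjusted p = 0.000160). CG30371, bright in the spermathecae of both genotypes, gave 0.00 there (-4.03, SE 0.393, adjusted p = 0.000577). NLaz fell in both organs, by 1.40 in the lower tract and by 6.34 in the spermathecae (4.94, SE 0.225, adjusted p = 1.30e-05). Cyp6a17, teq and Sodh2 did not pass the interaction (adjusted p = 0.356, 0.221 and 0.398).

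**Figure D5:**
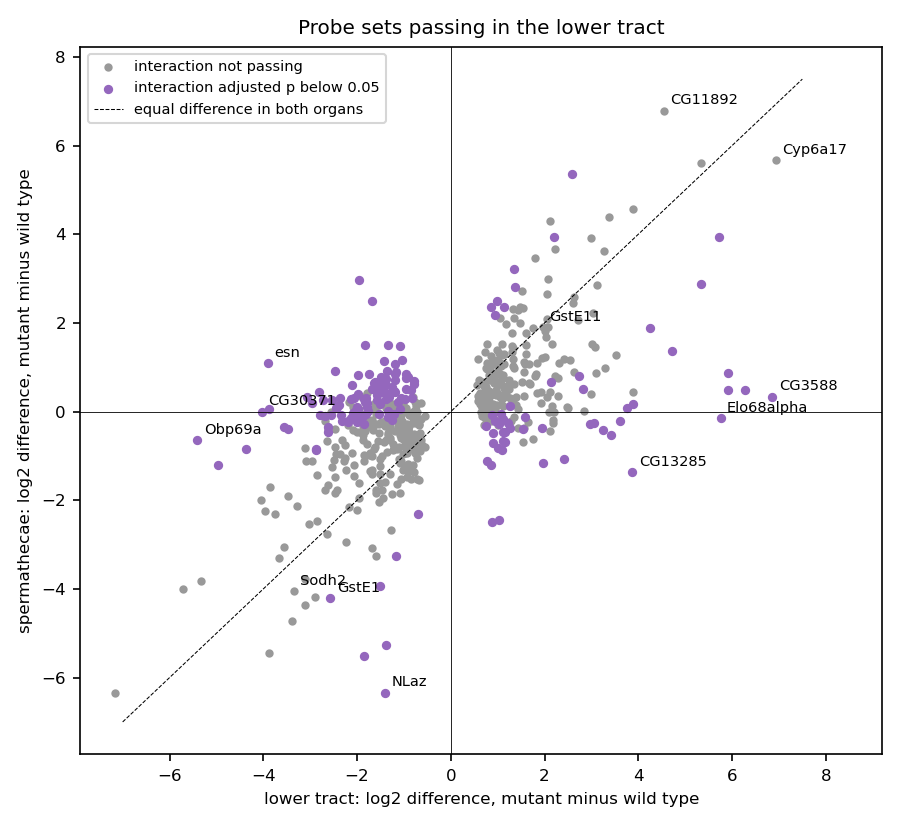
Difference between genotypes (log2, mutant minus wild type) in the lower tract on the x axis and in the spermathecae on the y axis, 1 point for each of the 601 probe sets passing in the lower tract, with those passing the interaction in purple and a dashed line at equal differences. Cyp6a17 lies high in both organs, Elo68alpha and CG3588 lie far to the right near 0 on the y axis, and NLaz is at -6.34 in the spermathecae.

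Passing probe sets came from all chromosome arms. On 2L, which carries Hr39, 116 of 1402 probe sets with 1 symbol passed (8.27%), against 5.23% on X and 6.24% to 8.33% on the other arms and on 4. Of the 25 genes on each side of Hr39, 21 were tested on 22 probe sets and 0 passed (smallest adjusted p = 0.160, with 3 at an unadjusted p below 0.05). Across the genome 525 of 7330 genes with 1 symbol passed, and at least 1 gene passed in 540 of 4573 adjacent pairs. Both genes passed in 37 pairs, in the same direction in 22 and in opposite directions in 15. Whether neighbours passed together more often than other genes was not tested. Cyp4p2 and Cyp4p1 fell together, as did Npc2g with Npc2h and IM33 with CG16713 (-2.44). Cyp6a17 rose beside its falling neighbour Cyp6a23, and CG13794 beside CG13793 (-2.69). For such near-identical or neighbouring family members the array's probes may not separate all transcripts. Of the tested probe sets 1423 carry suffixes that mark shared probes, but those of Cyp4p2, Cyp4p1, Npc2g, Cyp6a17 and Cyp6a23 do not.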

How the data were processed

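Total RNA was hybridised to 8 Affymetrix Drosophila Genome 2.0 arrays, 2 in each of 4 groups. The authors deposited linear intensity values from MAS5 (submitters' processing notes, version not given in the sources used here). Without the lowest and highest 2% of probe sets, array means were all 150, which shows a common scaling. No detection calls were used, and precision is limited by how few arrays there are. The 183 control probe sets of 18952 were left out. The platform annotation gave 1 symbol to 13647 probe sets, several to 402 and none to 4720, and 13544 matched RefSeq by Entrez identifier, with 0 symbols changed. RefSeq served for names and gene order, and no positions or sequences are given.

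Values were fitted as log2(signal + 4) in R 4.3.3 by limma 3.58.1 (functions lmFit and eBayes, variance trended). The model had a mean for each of the 4 groups of the 8 arrays, 4 residual and 5.69 prior degrees of freedom. Two-sided p-values were Benjamini-Hochberg adjusted across 9257 probe sets. The script was tested on simulated data. Within a group the labels mark 1 array as the duplicate.

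Gene lists (40), named genes and the members were chosen with earlier results of these data known, and 3 lists after values were seen. The rule for named genes took passing probe sets of 1 symbol whose genotypes did not overlap. It took the 15 largest rises and falls, ranked by the smaller of the differences with and without wild-type replicate 1, the 5 brightest rises and falls, and up to 4 passing members per list by adjusted p. Hr39, ftz-f1, osk, CycB, w, ry and y were always included, of which w had no probe set with 1 symbol and y was below the filter. Other passing list members, btl, Mst84B, and NLaz, CCHa2, Hml, Col4a1, Pxn, Yp1, Yp2 and Yp3, were named after their values were seen. Alternatives were quantile normalization, median centring, no pseudocount, a pseudocount of 20, other filters, probe sets without shared suffixes, other variance models, the replicate block, a fit of the 4 lower tract arrays and leaving out each array.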

Additional observations from a re-analysis of the deposited data

Results flagged for a closer look

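The genotype effect differed between the organs for 65 of the probe sets described, of 62 genes and 2 probe sets without a symbol, by a test of the difference itself (limma interaction, adjusted p below 0.05, which 290 of 9257 probe sets, 3.13%, reached). Values below are the lower tract difference minus the spermathecae difference on the log2 scale. Wild-type spermathecae replicate 1 had a 3′ to 5′ actin ratio of 7.09 against 1.34 to 2.14 on the other 7 arrays, and its part in these differences was not tested. Without it 342 probe sets passed the interaction.

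Among genes that fell in the lower tract, the most negative values were those of esn (-4.99), Obp69a (-4.77), CG30371 (-4.03), CG13931 (-3.94), Elovl7 (-3.76), CG5399 (-3.51), CG32444 (-3.23) and Obp56e (-3.10). Genes of fat body and metabolism and the peptide hormone gene CCHa2 had a more negative difference in the lower tract than in the spermathecae. They were Apoltp (-2.12), apolpp (-1.68), Lsd-1 (-1.70), Tps1 (-2.02), Prat2 (-1.98), Paics (-1.84), Pfas (-1.63), su(r) (-2.25), Agxt (-2.47), Srr (-2.17) and CCHa2 (-2.14). Genes of immunity and defence gave BomS6 (-2.99), PGRP-SC2 (-2.03), Spn47C (-2.27), Idgf5 (-1.72), Duox (-1.26) and GstS1 (-1.46). Further values were those of Npc2h (-2.56), Obp99c (-2.38), TwdlT (-2.25), Npc2g (-1.98), CG2233 (-1.69), mnd (-1.63), NPFR (-1.58), CAH2 (-1.49), Nplp2 (-1.14), Hex-C (-2.85), CG13793 (-2.59), Cyp309a2 (-2.58), Cyp6g1 (-2.28) and Sodh1 (-1.38). The stock marker gene ry did not pass in the lower tract and gave -2.79.

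Among genes that rose in the lower tract, the largest values were those of Cyp4d21 (3.35), Cht10 (3.49), Mal-B1 (3.70), Obp83cd (3.72), Obp83g (5.03), CG13285 (5.25), CG14419 (5.41), Elo68alpha (5.90) and CG3588 (6.52, and 3.82 on its second probe set). The probe sets without a symbol, 1635636_at and 1631349_s_at, gave 5.79 and 2.47. The hemocyte genes gave NimC1 (2.31), Sr-CI (1.94) and PPO1 (1.38), and other rises gave Irk2 (0.96), beat-VII (1.78), Cpr49Ae (1.85) and CG13794 (2.35). The remaining genes passed in both organs, the same way and further in the spermathecae. They were CG6409 (-1.50), Mf (-1.43), GstE1 (1.64), NLaz (4.94), Obp57c (1.61) and Cyp6a14 (2.43).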

How the results depend on the processing

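Over the 12 alternatives that keep all arrays of the comparison, 427 (no filter) to 739 (only the 4 lower tract arrays) probe sets passed, against 601. With no filter 171 rose, against 258, since p-values were then adjusted over 18769 probe sets. Leaving out 1 array at a time gave 189 to 732 calls in all, 67 to 334 higher and 122 to 398 lower, and 109 to 431 for the interaction. The lowest counts came without mutant lower tract replicate 1, when 189 passed and 109 passed the interaction. With the replicate number as a block 575 passed (243 higher, 332 lower) and 280 passed the interaction. Deviations of same-numbered arrays correlated between groups at r from -0.0281 to 0.0297. The labels name no batch, and a correlation over all probe sets cannot exclude one that touches some genes. Among the values of named genes over all alternatives, 2082 kept their direction and side of the threshold, 245 lost and 6 gained the threshold, and 6 changed sign. The sign changes were all in genes that had not passed. A difference cannot change sign when 1 array is left out if the genotypes do not overlap. Hr39 on 1628556_s_at went from -0.05 to 0.10 with quantile normalization, and ranged from -0.19 to 0.087 when 1 array was left out (0.07 without wild-type lower tract replicate 1). The ftz-f1 probe sets ranged from -0.36 to 0.018 and from -0.37 to 1.03 when 1 array was left out, and the latter was -0.02 without mutant lower tract replicate 2. The cause of these changes was not tested. Signals near the array medians limit the sizes of differences, and a lone array left in a group was assumed to vary like the other groups.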

Other observations

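Some of the largest differences lay on probe sets to which the annotation gives no symbol, and 39 such probe sets passed, beside 25 with several symbols. Probe set 1624819_s_at read 1.59 and 1.42 in the mutant lower tract and 764 and 809 in the wild-type tract, so that it fell by 7.16 on the log2 scale (SE 0.388, adjusted p = 1.09e-05). It fell in the spermathecae too, by 6.34. Probe set 1635636_at read 3839 and 4337 in the mutant and 53.7 and 44.1 in wild type (6.28, SE 0.279, adjusted p = 5.68e-06). In the spermathecae it lay at or under 22.8 on all 4 arrays, and the interaction passed (adjusted p = 0.000140). Probe set 1641419_at fell by 5.71 in the lower tract and fell by 3.99 in the spermathecae, and 1631349_s_at rose by 5.34 and 2.87. All 4 passed without wild-type lower tract replicate 1, with adjusted p from 0.000100 to 0.000712.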
